A study of Mus musculus with 16 samples.

Results

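Mitotic spindle, kinetochore and cytokinesis transcripts were measured in cultured mouse brain endothelial cells that carried human *APOE3* or human *APOE4*. The genes described were 50 named mitotic kinases, cyclins, kinetochore proteins, kinesins and cytokinesis proteins, picked by name from the 39057 rows of a count table whose identifiers were matched to the GENCODE vM21 mouse annotation. All 50 of 50 had enough counts to be among the 12481 genes tested. They were sorted by their step in mitosis into 9 genes of mitotic entry, 9 of the centromere and kinetochore, 5 of the spindle checkpoint, 5 of the chromosomal passenger complex with shugoshin, 11 spindle motors and microtubule proteins, 4 of anaphase onset and 7 of the central spindle and cytokinesis.

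Mitosis begins when cyclin-dependent kinase 1, bound to A- and B-type cyclins, triggers chromosome condensation and spindle assembly. Kinetochores then tie chromosomes to spindle microtubules, and the spindle checkpoint holds the cell until every kinetochore is attached. The anaphase-promoting complex afterwards marks securin and cyclins for destruction, sister chromatids part, and the central spindle directs the cleavage that separates the daughter cells. Most of these genes are transcribed in a burst before division, so that their RNA is abundant only in cycling cells. Brain endothelial cells, which line cerebral vessels and form the blood-brain barrier, rarely divide in adult tissue.

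The design compared genotypes with RNA sequencing of 16 untreated primary cultures, 8 *APOE3* and 8 *APOE4*. Each culture was made from the cortex of 1 mouse, aged 21 to 28 days, with 4 of each sex in either genotype. The mice were targeted replacement lines, in which a human *APOE* isoform stands in the place of mouse Apoe and is driven by the mouse promoter, so that every cell type that uses this promoter carries it, and both genotypes carry a human gene. Cells had been selected with puromycin (8 µg/ml) and were sequenced as confluent, unpassaged monolayers. Groups are called *APOE3* and *APOE4*, and libraries by the replicate number in their labels.

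Total counts per library were 12717847 to 18624417, the mitotic genes had between 8 counts (Cenpk) and 9324 (Mki67) in a library, and intervals of counting error do not cover PCR, since reads had no molecular identifiers. Human APOE had 15504 to 22318 counts in *APOE3* and 7672 to 14722 in *APOE4* libraries, which shows that all 16 carry a human gene but cannot tell its isoform. The 15 brain endothelial markers summed to 16370 to 17340 CPM (counts scaled to a common library size) in *APOE3* and 16000 to 17470 in *APOE4* libraries. Markers of pericytes and smooth muscle summed to 77.4 to 138 CPM in *APOE3* and 82.9 to 130 in *APOE4* libraries. Fibroblast markers summed to 13.3 to 65.3 and 10.4 to 85.2 CPM, and astrocyte markers to 31.9 to 41.7 and 33.4 to 43.4. Neuron markers summed to 8.91 to 12.8 and 10.8 to 15.6 CPM. Oligodendrocyte markers summed to 0.804 to 2.43 and 0.944 to 2.25, and microglia markers to 0.0704 to 0.749 and 0.112 to 0.792. Single genes made up most of 3 sums, with means in *APOE3* and *APOE4* of 83.8 and 80.3 CPM (Acta2, smooth muscle), 33.5 and 36.6 (Gja1, astrocytes) and 9.3 and 10.7 (Tubb3, neurons). The astrocyte marker Gfap had means of 0.124 and 0.113 CPM. By edgeR, 0 markers of these other cell types were called in either direction. An unadjusted edgeR p was under 0.05 for 2 of 7 tested pericyte and smooth muscle markers and 1 of 4 of fibroblasts. It was also under 0.05 for 2 of 2 of astrocytes and 2 of 2 of neurons, with 0 of microglia tested. Over all genes, 3617 of the 12481 tested had an unadjusted p under 0.05. Most of the tested markers had higher means in *APOE4*, with median log2 fold changes of 0.36, 0.30, 0.39 and 0.42 in these 4 lists. Among them were Col3a1 (1.06), Aldh1l1 (0.65) and Rbfox3 (0.64), at group means of only 1.12 to 3.76 CPM, and Gja1 (0.13). Acta2 (-0.06) and Col1a1 (-0.02) were the exceptions below 0, and Cspg4 had 0.11. The astrocyte and neuron medians rest on 2 genes each. Of the 15 endothelial markers 1 was called, lower in *APOE4* (Egfl7, log2 fold change -0.16, adjusted p = 0.00835), and 6 had an unadjusted p under 0.05. At 0 in every library were P2ry12 and C1qa (microglia), Olig1 and Olig2 (oligodendrocytes), Gjb6 (astrocytes) and Dpt (fibroblasts). Whether these other cells have a part in the mitotic difference was not tested.

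Mitotic transcripts were more abundant in *APOE4* brain endothelial cells at every step of mitosis. With edgeR's quasi-likelihood test and Benjamini-Hochberg adjustment over 12481 genes, 48 of the 50 genes were called higher in *APOE4* and 0 lower, while 6.71% of all genes tested were called higher. The log2 fold changes (log2FC, *APOE4* against *APOE3*) of the 50 genes had a median of 0.65 and ran from -0.02 (Pttg1, securin) to 0.86 (Hmmr), against a median of 0.00 over all genes tested. The remaining uncalled gene was Cenpk, an inner kinetochore subunit. From these RNA levels a larger share of dividing cells and more RNA in each dividing cell cannot be told apart. By immunocytochemistry, the authors' paper reported no genotype difference in cell density or in nuclei with the proliferation label BrdU at confluence. How that measure relates to the RNA difference was not tested. In its own RNA sequencing result, the paper listed the cell cycle among the manual categories of genes that differed with *APOE4*. The plot of fold changes by step shows how narrow the spread between genes was, with Bub3 and Pttg1 standing to the left of the others.

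**Figure D1:**
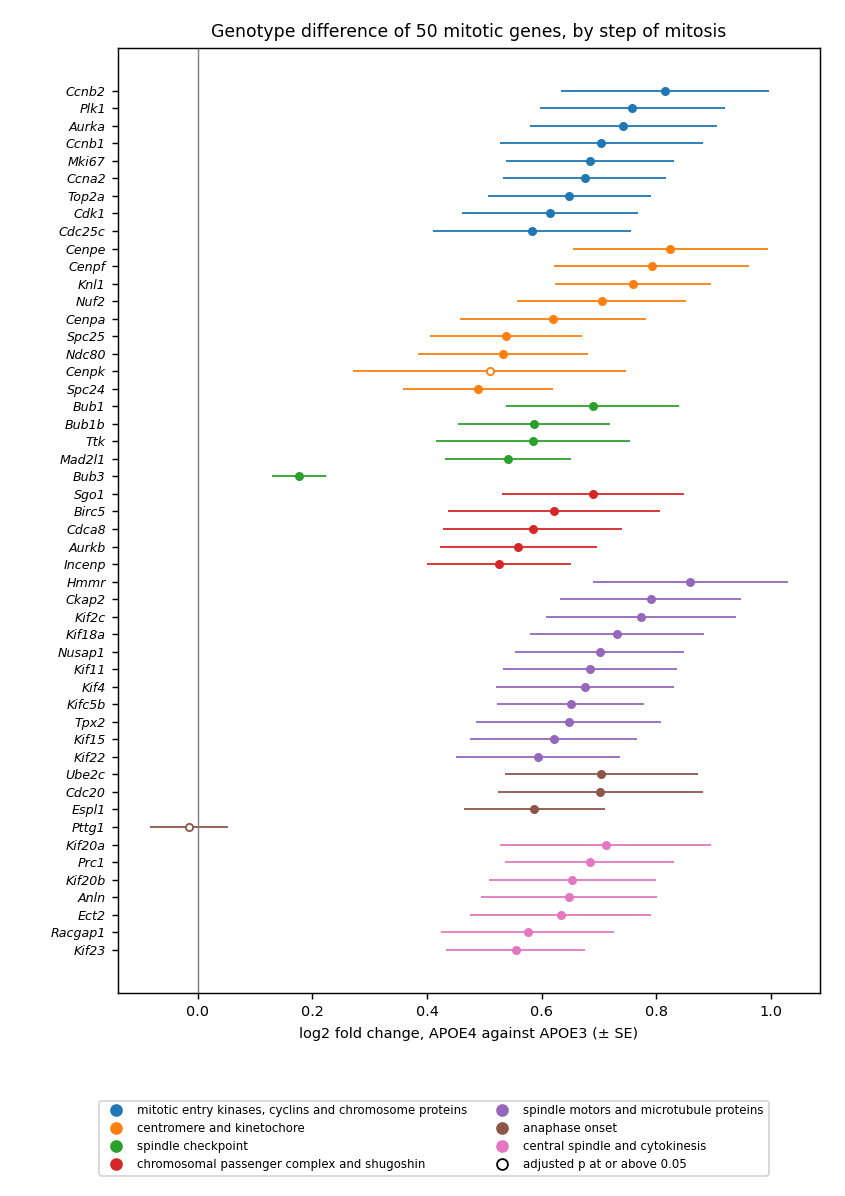
Log2 fold change (*APOE4* against *APOE3*, n = 8 libraries each) of the 50 mitotic genes, grouped and coloured by step; points are edgeR estimates and bars ± 1 SE, and open points are the genes that did not pass an adjusted p of 0.05. All but Bub3 (0.18) and Pttg1 (-0.02) lie between 0.49 and 0.86.

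The 50 genes together took 0.145% to 0.314% of all counts in *APOE3* libraries and 0.258% to 0.452% in *APOE4* libraries. Their summed level was lowest at 1441 CPM, had a median of 2062 and reached 3160 CPM among the *APOE3* libraries. Among the *APOE4* libraries it ran from 2577 through a median of 3238 to 4567 CPM. The groups overlapped, since *APOE3* replicate 31, a female, lay above several *APOE4* libraries. *APOE3* replicate 27, a male, at 2594 CPM also lay above *APOE4* replicate 43 at 2577 CPM. Correspondingly, 0 of the 50 genes had every *APOE4* library above every *APOE3* library, a separation that 0.256% of all genes tested showed. With *APOE3* replicate 31 left out, an alternative chosen after seeing the data, 11 of 50 did, against 1.05% of all genes tested.

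Promoters are shown for a few of the genes because many mitotic genes share a pair of elements there: the cell cycle genes homology region (CHR), with the letters TTTGAA, which the DREAM and MuvB complexes bind, and the CCAAT box, which NF-Y binds. Windows from 250 bases before to 50 bases after a start site were taken from RefSeq (build GRCm38.p6), which gave 48 windows for 43 of the 50 genes, and were searched on both strands. Neither motif contains the other. Kif20a, Incenp, Cdc25c, Tpx2, Aurkb, Spc24 and Ccna2 had no entry. Below, the stretch from 180 bases before to 30 after the start is printed 5′ to 3′ on the strand of the gene, with matches to either motif in capitals (read from the other strand, the CHR letters appear as TTCAAA and the box as ATTGG). Hmmr, Ccnb2, Cenpf and Ckap2 had the largest changes among genes with a TTTGAA match and a start near the outermost one, Cenpe, with a larger change than 3 of them, was passed over because its window held no TTTGAA and 1 CCAAT, and Bub3, chosen after its values were seen, had the smallest change among the called genes.
Hmmr (chr11:40733408-40733617, minus strand): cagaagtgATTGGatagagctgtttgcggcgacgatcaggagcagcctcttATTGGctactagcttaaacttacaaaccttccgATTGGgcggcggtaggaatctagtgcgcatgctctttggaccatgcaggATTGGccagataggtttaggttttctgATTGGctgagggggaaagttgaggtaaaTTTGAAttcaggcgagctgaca
Ccnb2 (chr9:70421525-70421734, minus strand): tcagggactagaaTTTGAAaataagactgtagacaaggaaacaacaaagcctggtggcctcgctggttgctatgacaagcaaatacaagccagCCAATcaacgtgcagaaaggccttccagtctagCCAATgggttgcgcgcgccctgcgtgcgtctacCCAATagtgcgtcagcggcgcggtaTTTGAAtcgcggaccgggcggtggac
Cenpf (chr1:189688057-189688266, minus strand): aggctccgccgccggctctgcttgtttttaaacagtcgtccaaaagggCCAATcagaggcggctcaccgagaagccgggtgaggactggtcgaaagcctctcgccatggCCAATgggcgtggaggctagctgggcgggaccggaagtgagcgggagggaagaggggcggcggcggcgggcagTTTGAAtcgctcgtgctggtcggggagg
Ckap2 (chr8:22185790-22185999, minus strand): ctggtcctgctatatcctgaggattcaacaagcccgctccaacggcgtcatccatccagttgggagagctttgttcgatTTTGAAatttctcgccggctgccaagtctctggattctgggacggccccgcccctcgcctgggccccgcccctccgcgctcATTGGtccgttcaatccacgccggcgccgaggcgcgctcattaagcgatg
Bub3 (chr7:131560190-131560399, plus strand): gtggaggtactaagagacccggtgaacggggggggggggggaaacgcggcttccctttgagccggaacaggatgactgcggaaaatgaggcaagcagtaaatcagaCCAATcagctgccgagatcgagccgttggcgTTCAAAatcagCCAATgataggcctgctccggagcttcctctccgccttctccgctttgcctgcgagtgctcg

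The Hmmr window held 1 TTTGAA, starting at base 9 after the start site, and 5 CCAAT matches. That of Ccnb2 held TTTGAA at bases 5 and -167 with 3 CCAAT matches, and that of Cenpf held TTTGAA at base 3 with 2 CCAAT matches. Ckap2 had 1 of each. Bub3 also held 1 TTTGAA and 2 CCAAT matches. TTTGAA is present in the first 4 windows by the way they were chosen.

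Over all windows of the 50 genes, 35 of 48 (72.9%) held TTTGAA, against 17.9% of all 32851 promoters, and 36 of 48 (75.0%) held CCAAT, against 37.4%. Both motifs stood together in 29 of 48 windows (60.4%), against 6.95% of all promoters. Among the windows whose start was within 100 bases of the outermost GENCODE start of the gene, both stood together in 24 of 38 (63.2%), against 6.4% of 15025. In 31 of the 35 windows with TTTGAA a match began within 50 bases of the start. Nuf2, Kif18a, Nusap1, Mad2l1, Birc5 and Pttg1 had neither motif in the window searched, and of these Pttg1 alone was not called. The start site of the Pttg1 window lies 270 bases inside the outermost GENCODE start, and sequence upstream of the window was not searched. The start sites of the Kif2c and Cdca8 windows lie 3867 and 2394 bases inside the outermost GENCODE starts. Kif2c, next in fold change after Ckap2 among genes with TTTGAA, is not printed for this reason.

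All 9 genes of mitotic entry rose in *APOE4*, with a median log2 fold change of 0.68. Ccnb2, a B-type cyclin that activates CDK1, changed most in this step. It ranged from 23.1 through a median of 35.5 to 64.6 CPM in *APOE3* and from 47.6 through 62.7 to 105 CPM in *APOE4* libraries (log2FC 0.82, SE 0.181, edgeR adjusted p = 0.00958). All 8 *APOE4* libraries were above the *APOE3* median, and 3 of them above the highest *APOE3* library. Cdc25c, the phosphatase that removes the inhibitory phosphates from CDK1, changed least, from 3.48 through 4.80 to 7.67 CPM in *APOE3* and from 5.50 through 6.79 to 10.9 CPM in *APOE4* libraries (log2FC 0.58, SE 0.173, adjusted p = 0.0328). When libraries were left out singly the Cdc25c call survived 9 of 16 times and was lost, at adjusted p of 0.0519 to 0.0823, without *APOE3* replicates 25, 28, 30 or 33 or *APOE4* replicates 35, 40 or 41.

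CDK1 itself and its other cyclins moved by similar amounts. Cdk1 rose from 52.5 ± 15.6 to 80.3 ± 17.5 CPM (mean ± SD, n = 8 each), a log2 fold change of 0.61. Ccnb1, cyclin B1, had a log2 fold change of 0.70 and Ccna2, cyclin A2, which also acts in S phase, of 0.67. The mitotic kinases Plk1 and Aurka, which mature the centrosomes and build the spindle poles, rose from 46.4 ± 13.9 to 78.5 ± 18.8 CPM and from 26.3 ± 7.53 to 44.0 ± 10.8 CPM. Of the chromosome proteins, Mki67, which encodes the proliferation marker Ki-67 that coats mitotic chromosomes, was the most abundant gene of all 50 in CPM and rose from 255 ± 69.6 to 410 ± 80.5 CPM (log2FC 0.68, SE 0.146, edgeR adjusted p = 0.00824). Top2a, the topoisomerase that untangles sister DNA, rose from 157 ± 43.5 to 246 ± 46.4 CPM. These adjusted p-values were 0.00817 to 0.0153.

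Of the 9 centromere and kinetochore genes 8 rose, with a median log2 fold change of 0.62. Cenpe, the kinesin that carries chromosomes towards the spindle equator, changed most: it ran from 24.1 through 44.1 to 69.3 CPM in *APOE3* and from 55.8 through 71.7 to 104 CPM in *APOE4* libraries (log2FC 0.82, SE 0.170, edgeR adjusted p = 0.00787). Only *APOE3* replicate 31 reached the *APOE4* range. Knl1, the outer kinetochore scaffold that recruits BUB1 and BUBR1, had the smallest p of the 50 genes. Its levels were 6.97 through 10.5 to 15.8 CPM in *APOE3* and 14.2 through 18.3 to 24.6 CPM in *APOE4* libraries (log2FC 0.76, SE 0.137, adjusted p = 0.00574), and 7 of 8 *APOE3* libraries lay below the lowest *APOE4* library. Knl1 lies on chromosome 2 from 119047119 to 119105501 (build GRCm38).

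The 4 subunits of the NDC80 complex, the microtubule-binding arm of the kinetochore, all rose, Nuf2 by 0.70 on the log2 scale, Spc25 by 0.54, Ndc80 by 0.53 and Spc24 by 0.49. Spc24 was the smallest called change of this step, with 9.85 through 11.3 to 18.6 CPM in *APOE3* and 14.1 through 15.7 to 24.1 CPM in *APOE4* libraries (SE 0.131, edgeR adjusted p = 0.0214). Its groups overlapped, and 2 of 8 *APOE4* libraries were above the highest *APOE3* library. The Spc24 call was lost without *APOE4* replicate 41 (adjusted p = 0.0526), and the Ndc80 call without *APOE3* replicate 33 (0.0529) or *APOE4* replicate 41 (0.0621). Per kb of exon, a scale that allows genes to be compared, the *APOE3* levels were 4.82 ± 1.15 CPM per kb for Spc24, 3.64 ± 0.876 for Spc25, 2.33 ± 0.629 for Nuf2 and 1.85 ± 0.535 for Ndc80, and the order was the same in *APOE4* (6.75 ± 1.36, 5.28 ± 0.955, 3.80 ± 0.780 and 2.68 ± 0.474).

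Cenpf, a large microtubule- and dynein-binding protein of the outer kinetochore, rose by 0.79 on the log2 scale, and Cenpa, the histone H3 variant that marks centromeres, by 0.62 (edgeR adjusted p = 0.0083 and 0.0188). Cenpk was the uncalled member of the step. It ran from 0.521 through 0.766 to 1.90 CPM in *APOE3* and from 0.947 through 1.26 to 1.58 CPM in *APOE4* libraries, with 8 to 29 counts in a library (log2FC 0.51, SE 0.238, adjusted p = 0.160). The highest Cenpk level of all was that of *APOE3* replicate 31, and without this library the adjusted p was 0.0180 and the log2 fold change 0.74.

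All 5 spindle checkpoint genes rose, with a median log2 fold change of 0.59 and the widest spread of any step in which every gene was called. Bub1, a kinase that marks centromeric chromatin and starts checkpoint signalling, had 9 through 14.5 to 20.1 CPM in *APOE3* and 17.1 through 21.8 to 29.9 CPM in *APOE4* libraries (log2FC 0.69, SE 0.151, edgeR adjusted p = 0.00886). Of the 8 *APOE4* libraries, 5 were above every *APOE3* library. Bub3, the adaptor that carries BUB1 and BUBR1 to kinetochores, changed far less. It had 80.0 through 84.8 to 95.5 CPM in *APOE3* and 90.7 through 94.8 to 113 CPM in *APOE4* libraries (log2FC 0.18, SE 0.0470, adjusted p = 0.0208), with 4 *APOE4* libraries above the *APOE3* range. The Bub3 call was lost without *APOE4* replicate 41 (adjusted p = 0.0501).

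Bub3 was also the steadiest of the called genes between libraries, at 86.1 ± 5.51 and 97.3 ± 7.51 CPM (SD, n = 8 each). Bub1b, which encodes BUBR1 of the mitotic checkpoint complex, rose from 46.0 ± 10.7 to 69.1 ± 14.3 CPM and Mad2l1, the MAD2 protein that blocks CDC20, from 22.3 ± 4.48 to 32.5 ± 4.87 CPM. Ttk, the MPS1 kinase at the head of the checkpoint, rose by 0.59 on the log2 scale (edgeR adjusted p = 0.0293). The Ttk call was lost without *APOE3* replicates 26, 28, 30 or 33 or *APOE4* replicates 35, 40 or 41, at adjusted p of 0.0506 to 0.0630.

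**Figure D2:**
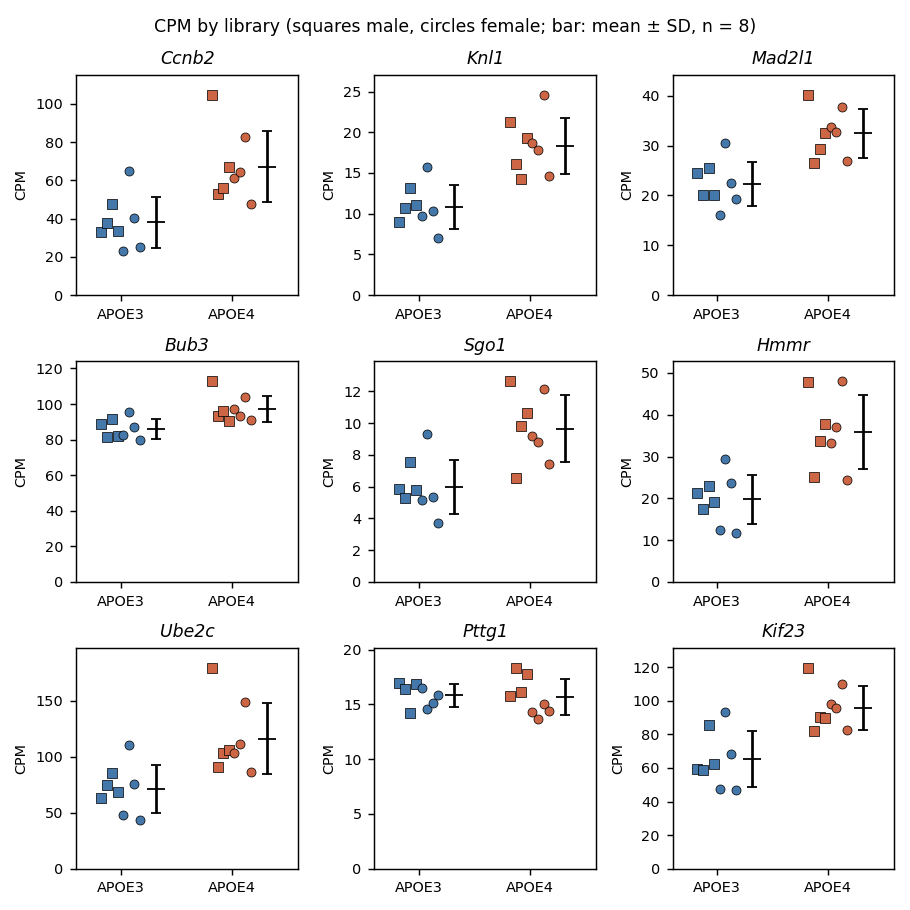
CPM of 9 mitotic genes in each library (squares male, circles female), with mean ± SD of the 8 libraries of a genotype; each axis starts at 0. Ccnb2, Knl1, Mad2l1, Sgo1, Hmmr, Ube2c and Kif23 lie higher in *APOE4* with some overlap, Bub3 shifts from 86.1 to 97.3 CPM, and Pttg1 stays at 15.8 and 15.7 CPM.

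The 4 subunits of the chromosomal passenger complex, which corrects faulty attachments and later moves to the midzone, and Sgo1, the shugoshin that protects centromeric cohesin, all rose, with a median log2 fold change of 0.58. Sgo1 ran from 3.69 through 5.56 to 9.29 CPM in *APOE3* and from 6.55 through 9.52 to 12.6 CPM in *APOE4* libraries (log2FC 0.69, SE 0.158, edgeR adjusted p = 0.0108). Incenp, the scaffold of the complex, ran from 56.4 through 80.4 to 113 CPM and from 86.9 through 114 to 155 CPM (log2FC 0.53, SE 0.126, adjusted p = 0.0128). In both genes 4 or 5 of the 8 *APOE4* libraries were above the highest *APOE3* library. Birc5 (survivin) had a log2 fold change of 0.62, Cdca8 (borealin) of 0.58 and Aurkb, the Aurora B kinase of the complex, of 0.56. The Birc5 call was lost without *APOE3* replicates 26, 28, 30 or 33 or *APOE4* replicates 35, 40 or 41, at adjusted p of 0.0539 to 0.0754.

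All 11 spindle motors and microtubule proteins rose, with a median log2 fold change of 0.68, and this step held the largest change. Hmmr (ENSMUSG00000020330.16, chromosome 11 from 40701395 to 40733422), a spindle assembly factor that binds microtubules and TPX2, had 11.8 through 20.1 to 29.5 CPM in *APOE3* and 24.4 through 35.4 to 48.0 CPM in *APOE4* libraries (log2FC 0.86, SE 0.170, edgeR adjusted p = 0.00649). Again *APOE3* replicate 31 alone reached the *APOE4* range, and 6 of 8 *APOE4* libraries were above it. Kif22, a chromokinesin that pushes chromosome arms outward, changed least, from 22.2 through 31.3 to 49.1 CPM in *APOE3* to 37.7 through 47.6 to 68.2 CPM in *APOE4* libraries (log2FC 0.59, SE 0.143, adjusted p = 0.0134). Kifc5b, a minus-end-directed kinesin, had 5.43 through 7.18 to 9.79 CPM in *APOE3* and 9.78 through 10.4 to 15.8 CPM in *APOE4* libraries (log2FC 0.65, SE 0.129, adjusted p = 0.00657), and its highest *APOE3* library was level with its lowest *APOE4* library. Of its transcript stretches of 50 bases, 37.4% also occur in other genes, chiefly its near copy Kifc1, so the split of reads between them is uncertain.

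The motors that set spindle bipolarity and length moved alike. Kif11, the Eg5 motor that pushes the poles apart, rose from 38.9 ± 11.4 to 62.4 ± 12.3 CPM, and Kif15, which can take over from it, from 15.8 ± 3.83 to 24.4 ± 5.62 CPM. Kif2c, a microtubule depolymerase that frees wrong attachments, rose by 0.77 on the log2 scale, Kif18a, which damps chromosome movements, by 0.73, and the chromokinesin Kif4 by 0.68. Tpx2, which activates Aurora A and nucleates spindle microtubules, was the most abundant of the step in CPM and rose from 75.1 ± 22.2 to 118 ± 27.8 CPM. Ckap2 and Nusap1, which stabilise and bundle microtubules, rose by 0.79 and 0.70 on the log2 scale. All 11 calls held in each of the 16 fits that left out 1 library.

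Anaphase onset was the step that split. Ube2c, the ubiquitin-conjugating enzyme of the anaphase-promoting complex, ran from 43.2 through 71.8 to 110 CPM in *APOE3* and from 86.2 through 105 to 179 CPM in *APOE4* libraries (log2FC 0.70, SE 0.168, edgeR adjusted p = 0.0127). Its activator Cdc20 rose from 56.4 ± 17.5 to 91.8 ± 27.1 CPM and Espl1, the separase that cuts cohesin, from 33.4 ± 7.74 to 50.1 ± 8.88 CPM. Pttg1 (chromosome 11 from 43420250 to 43426251), the securin that holds separase inactive, had 14.2 through 16.2 to 17.0 CPM in *APOE3* and 13.7 through 15.4 to 18.3 CPM in *APOE4* libraries. Its groups covered each other, with a log2FC of -0.02 (SE 0.0674, adjusted p = 0.911), and 2 of 8 *APOE4* libraries were above the *APOE3* median. Counts of 199 to 288 per library lay behind this value. The called genes Cdc25c, Kif18a and Sgo1 had 52 to 200, 30 to 131 and 55 to 223. Whether count depth bears on the Pttg1 result was not tested. Pttg1 was also the member that did not follow the libraries: *APOE4* replicates 35 and 41, high for the other genes, had 15.8 and 15.0 CPM of it.

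All 7 central spindle and cytokinesis genes rose, with a median log2 fold change of 0.65. Kif20a, the kinesin that brings Aurora B to the midzone, ran from 36.6 through 59.8 to 100 CPM in *APOE3* and from 68.2 through 92.9 to 149 CPM in *APOE4* libraries (log2FC 0.71, SE 0.184, edgeR adjusted p = 0.0178). Exons of Cdc23 cover 29.3% of its exon length on the other strand, and the strand setting of the counting was not given in the sources used here, so reads of the pair may not be told apart. Cdc23 itself had 63.0 ± 4.16 and 68.4 ± 5.41 CPM (log2 fold change 0.12, adjusted p = 0.124). Kif23, the motor subunit of centralspindlin, changed least, from 46.7 through 60.9 to 93.1 CPM in *APOE3* to 82.0 through 92.8 to 119 CPM in *APOE4* libraries (log2FC 0.55, SE 0.122, adjusted p = 0.00886). In both genes 3 or 4 *APOE4* libraries were above the highest *APOE3* library.

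Racgap1, the other centralspindlin subunit, had a log2 fold change of 0.58, and Ect2, the exchange factor through which it activates RhoA at the cleavage site, of 0.63. Prc1, which bundles the antiparallel microtubules of the midzone, rose from 94.4 ± 25.9 to 152 ± 31.6 CPM. Anln, the anillin that links the contractile ring to the membrane, rose from 88.9 ± 24.9 to 139 ± 31.9 CPM and Kif20b, a midbody kinesin, from 18.3 ± 5.22 to 28.8 ± 4.78 CPM. These calls held in all 16 fits that left out 1 library.

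Other members share sequence or exon length with neighbours as well. Stretches of 50 bases in other genes made up 25.2% of Kif20a (Cdc23), 23.4% of Ccnb1 (pseudogenes), 16% of Ube2c, 14.5% of Kif4, 11.9% of Cdc25c, 11.4% of Ccna2, 10.6% of Cdc20, 10.4% of Plk1 and 9.77% of Prc1, and less than these in the genes not named here. Per kb of exon the most abundant members in *APOE3* were Cdc20 (30.2 ± 9.38 CPM per kb), Ube2c (27.4 ± 8.17), Mki67 (25.4 ± 6.92) and Ccnb2 (24.9 ± 8.69), which lay within 1 SD of each other. The least abundant were Cenpk (0.173 ± 0.0858 CPM per kb) and Kif18a (0.370 ± 0.101).

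The mitotic genes moved together from library to library within each genotype. *APOE3* replicate 33 had the lowest level of the 16 libraries in 28 of the 50 genes and *APOE3* replicate 30 in 20. *APOE4* replicate 35 had the highest level in 40 genes and *APOE4* replicate 41 in 7. *APOE3* replicate 31 was among the 4 highest libraries in 14 genes. Within a genotype the SD of a gene's log2 CPM had a median of 0.41 in *APOE3* and 0.29 in *APOE4* for the 50 genes, against 0.13 and 0.13 over all genes tested. By mean log2 CPM, *APOE3* replicates 30 and 33 were the lowest and *APOE4* replicates 35 and 41 the highest libraries in each of the 7 steps, as the map of levels by library shows.

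**Figure D3:**
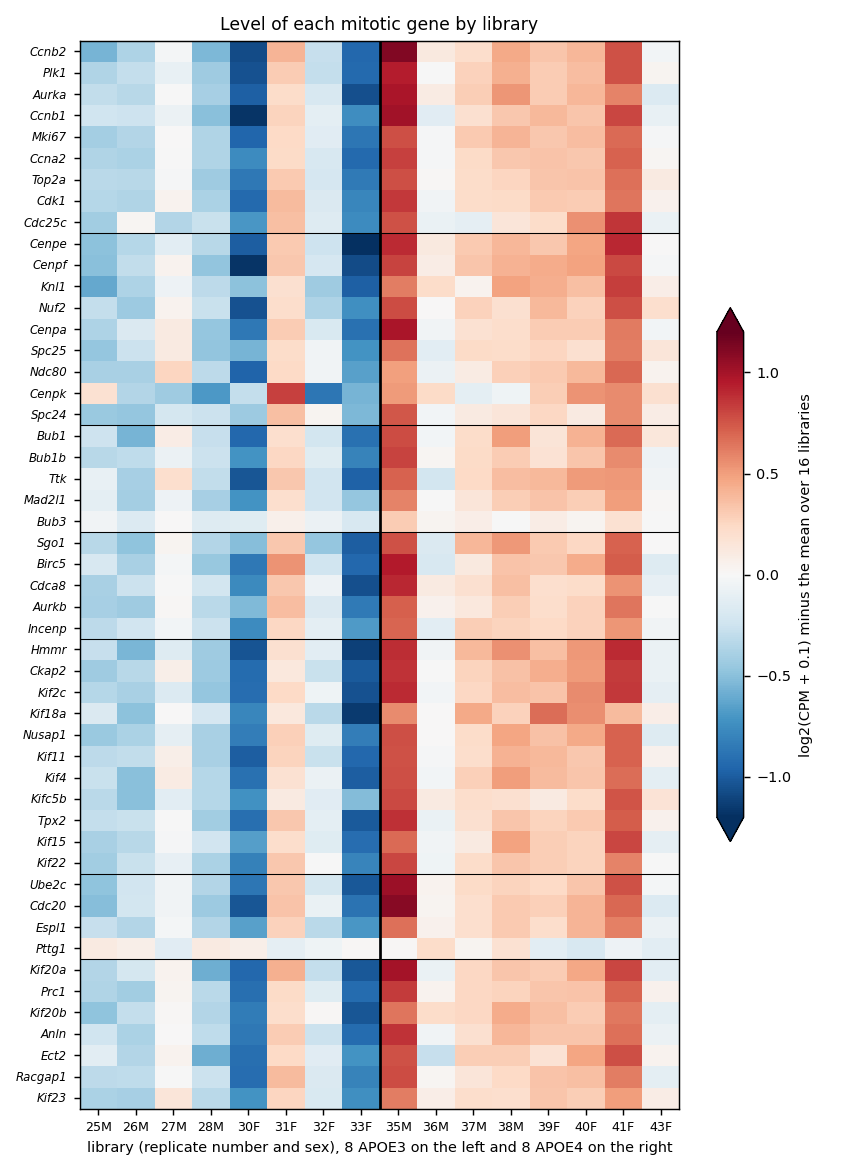
Level of the 50 mitotic genes (rows, by step, separated by lines) in the 16 libraries (columns, replicate number and sex; *APOE3* left and *APOE4* right of the thick line), as log2(CPM + 0.1) minus the mean of the gene over the 16 libraries. Columns of one colour run through all steps, with *APOE3* replicates 30 and 33 lowest and *APOE4* replicates 35 and 41 highest, and Bub3 and Pttg1 are pale.

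The genotypes were also compared within each sex. In 1 edgeR fit of 4 groups, the median log2 fold change of the 50 genes was 0.62 in males and 0.69 in females, and 50 and 49 genes were above 0. Within males 0 of 50 genes passed the adjusted threshold and 45 had an unadjusted p under 0.05. Within females the counts were 0 and 47. Over all genes tested, 0.0% were called within males and 0.0% within females, with 1775 and 2428 of 12481 at an unadjusted p under 0.05. The genotype effect differed between the sexes in 0 of 50 genes (0.0% of all genes tested). An unadjusted p was under 0.05 for 0 of 50, against 345 of 12481 genes tested. The median difference in log2 fold change was 0.06, female minus male. No other tool was run on this fit.

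The spread was uneven between the groups of 4. Summed over the 50 genes, *APOE3* males had 2020 to 2594 CPM and *APOE3* females 1441 to 3160, the lowest and the highest *APOE3* libraries both being female. *APOE4* males had 2600 to 4567 CPM and *APOE4* females 2577 to 4137. Without *APOE3* replicate 31, 47 of the 50 genes were called within females, and without *APOE4* replicate 35, a male, 4 were. All groups share an estimate of the spread in such a fit, and the cause of these calls was not tested. The share of all genes called within females in these fits was not counted. These rises can therefore not be called particular to the mitotic genes. In the genotype fit of both sexes, all genes called rose from 1597 to 2127 without *APOE3* replicate 31. Sex itself, averaged over genotypes, changed 0 of 50 genes by edgeR's adjusted p, against 0.0721% of all genes tested. Pttg1, with a log2 difference of -0.15 (female minus male), was the 1 of 50 genes with an unadjusted p under 0.05, against 532 of all 12481 tested.

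Lists of other genes in the same machinery were compared by their counts and medians, beside the 837 of 12481 genes called higher and 760 called lower in all. Of 40 other genes whose expression peaks in mitosis 37 rose and 0 fell, with a median log2 fold change of 0.60, led by Aspm (0.83), a spindle pole protein, Cep55 (0.80), which recruits the abscission machinery to the midbody, and Parpbp (0.76). The exceptions were Depdc1a, Ska1 and Oip5, with log2 fold changes of 0.81, 0.56 and 0.53 and edgeR adjusted p of 0.0508, 0.0962 and 0.0572. Of 21 other kinetochore and centromere subunits 11 rose, with a median of 0.36. Cenpq (0.60), Cenpn (0.59) and Cenpi (0.55), inner kinetochore subunits, led this list.

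The lists of further checkpoint, anaphase-promoting complex, mitotic exit and centrosome genes had medians nearer to 0. Of 9 checkpoint proteins of the RZZ, Mad1 and dynein group 3 rose (median 0.08), namely Zwilch (0.62) and Kntc1 (0.53) of the RZZ complex and Spdl1 (0.54), which links it to dynein. In the 15 core subunits and adaptors of the anaphase-promoting complex, Cdc27 (0.22) was the only call, and the median was 0.03. Of 14 genes of the mitotic exit phosphatases and the Greatwall pathway Mastl (0.62), the Greatwall kinase that restrains phosphatase 2A during mitosis, rose and Ppp2r5a, a regulatory subunit of that phosphatase, fell by 0.37 (median 0.02). Of 26 centrosome and spindle pole genes 6 rose (median 0.12), with Stil (0.73) and Plk4 (0.45) of centriole duplication and Gpsm2 (0.54) of spindle orientation the largest.

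**Figure D4:**
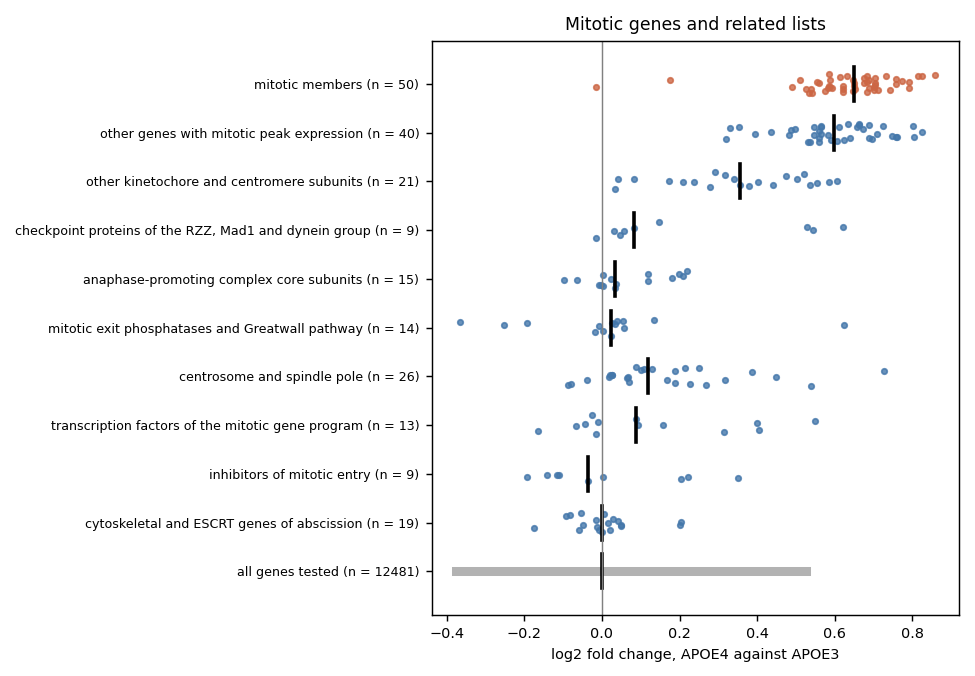
Log2 fold change (*APOE4* against *APOE3*) of the 50 mitotic genes (orange) and of the genes tested in 9 related lists (blue), with the median of each list as a black line and, for all 12481 genes tested, the range of the central 95% of genes as a grey bar. The mitotic genes and the other genes with mitotic peak expression have medians of 0.65 and 0.60, and the remaining lists lie between -0.04 and 0.36.

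Of 13 transcription factors of the mitotic gene program 3 rose and 0 fell, with a median log2 fold change of 0.09. Foxm1, which drives transcription before mitosis, rose from 83.5 ± 19.2 to 122 ± 26.6 CPM (log2FC 0.55, SE 0.135, edgeR adjusted p = 0.0143). Lin9, a MuvB subunit, and Rbl1, the p107 pocket protein, rose by 0.41 and 0.31 on the log2 scale. Mybl2, B-Myb, had 17.9 ± 3.88 and 23.7 ± 5.89 CPM (log2 fold change 0.40, adjusted p = 0.0661). Nfya, Nfyb and Nfyc, the subunits of NF-Y, had log2 fold changes of -0.01, -0.03 and -0.01, none called.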

How the data were processed

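RNA of 16 cultures was sequenced from 100 ng as poly-A libraries of 17 PCR cycles, with paired reads of 50 bases. The authors deposited raw read counts per gene, without normalization, for versioned mouse Ensembl identifiers and human APOE. The submitters' processing notes name STAR, featureCounts and the builds mm10 and hg38, and give no versions. The annotation release and strand setting were not given in the sources used here. Of 39056 mouse identifiers 38872 matched GENCODE vM21, which supplied symbols, and 0 count columns were unmapped.

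Counts entered edgeR 4.0.16 in R 4.3.3 (filterByExpr by genotype, TMM, quasi-likelihood F test, genotype as the single term, Benjamini-Hochberg over 12481 genes, threshold 0.05). An SE is the size of the log2 fold change divided by the square root of F. Sex used 1 fit of 4 genotype and sex groups. CPM used TMM-scaled library sizes, log2 CPM a prior count of 2, and levels per kb the union of exons. Libraries came from separate animals. Total counts were 12717847 to 18624417, and their precision covers counting error only. Python 3.11.15 made the tables and figures. Simulated data, with genes drawn independently, were used to try 2 edgeR comparisons: genotype, and the difference of the genotype effect between sexes. The other contrasts and the alternatives were not simulated.

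Alternatives were DESeq2 1.42.0 size factors and Wald test, no filter, a minimum of 10 counts per library, a covariate of sex or of 1 surrogate variable (sva 3.50.0), voom with quality weights (limma 3.58.1), and each library left out. Genes described with values in all libraries are, per step, those with the largest and smallest absolute change, those not called, and the 3 with the smallest p. Other lists give up to 3 called genes of largest change in each direction, and further genes there were named after their values were seen. The members and lists were chosen with earlier results of these data known. The result of 1 marker gene is not reported here.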

Additional observations from a re-analysis of the deposited data

How the results depend on the processing

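All 48 calls among the 50 mitotic genes were kept with DESeq2's size factors, DESeq2's Wald test, voom with quality weights, no filter, sex as covariate, 1 surrogate variable and at least 10 counts in every library, where Cenpk was not tested. The surrogate variable divided the libraries by sex. The number of mitotic genes called was 42 to 49 when 1 library was left out, and their median log2 fold change 0.58 (without *APOE4* replicate 35) to 0.76 (without *APOE3* replicate 31). Over all genes 1597 were called, and 846 (without *APOE4* replicate 41) to 2127 (without *APOE3* replicate 31) with 1 library left out, with 853 and 952 without *APOE3* replicates 30 and 33. Within females the count of mitotic genes called was 34 without a filter on low counts and 0 to 47 with 1 library left out. The share of all genes called within females in these settings was not counted. Separation of every *APOE4* from every *APOE3* library held for 0 to 11 of the 50 with 1 library left out. The log2 fold change of Pttg1 was 0.0023, 0.0098 and 0.0012 without *APOE4* replicates 39, 40 and 43, and its range with 1 library left out was -0.0495 to 0.0098, so it has no direction. The causes were not tested. No paired analysis was made, because the sample labels used here name no isolation or preparation batch that would pair the genotypes. Replicate numbers run from 25 to 33 in *APOE3* and from 35 to 43 in *APOE4*, so their order cannot be told apart from genotype. Cenpk had the fewest counts, 8 to 29 in a library, and was called only without *APOE3* replicate 31.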

Other observations

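Of 9 inhibitors of mitotic entry 1 was higher and 1 lower, and their log2 fold changes had a median of -0.04. Over all 12481 genes tested 837 (6.71%) were higher and 760 lower. Pkmyt1, a kinase that holds CDK1 inactive, rose from 29.5 ± 5.66 to 37.6 ± 6.29 CPM (SD, n = 8 each; log2 fold change 0.35, edgeR adjusted p = 0.0407). Cdkn1a, which encodes the cyclin-dependent kinase inhibitor p21, fell from 251 ± 12.7 to 232 ± 5.08 CPM (log2 fold change -0.11, adjusted p = 0.0262). Wee1, another kinase that inhibits CDK1, had 30.0 ± 3.43 and 34.5 ± 3.70 CPM (log2 fold change 0.20, adjusted p = 0.0634).

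Of 20 cytoskeletal and ESCRT genes that act in abscission, 19 were tested, 2 were higher (6.71% over all genes tested) and 0 lower, and the median log2 fold change was 0.00. Sept7, a septin, rose from 203 ± 16.1 to 233 ± 14.1 CPM (log2 fold change 0.20, edgeR adjusted p = 0.0119). Of the 19, 1 gene had every *APOE4* library above every *APOE3* library, as did 0.256% of all genes tested.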
